A study of Saccharomyces cerevisiae and Kluyveromyces lactis with 95 samples.

Results

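Among the nuclear genes of budding yeast, 32 genes that encode subunits of the respiratory chain and of the mitochondrial ATP synthase, or small inhibitors of that synthase, were followed. They were chosen by common name and comprise 9 subunits of complex III (*RIP1*, *CYT1*, *COR1*, *QCR2*, *QCR6*, *QCR7*, *QCR8*, *QCR9*, *QCR10*), 7 of complex IV (*COX4*, *COX6*, *COX7*, *COX8*, *COX9*, *COX12*, *COX13*), 14 of complex V (*ATP1*, *ATP2*, *ATP3*, *ATP4*, *ATP5*, *ATP7*, *ATP14*, *ATP15*, *ATP16*, *ATP17*, *ATP18*, *ATP19*, *ATP20*, *TIM11*) and the 2 inhibitors *INH1* and *STF1*. Of the 6600 *S. cerevisiae* genes counted, 5779 had enough counts to be tested, and 31 members were among them. The remaining member, *QCR6*, had 0 counts in all 56 *S. cerevisiae* cultures, so nothing is said of its level there. In *K. lactis*, 29 members had an ortholog and none was annotated for *ATP14*, *ATP15* and *ATP19*. These orthologs were 28 genes, because *INH1* and *STF1*, which are ohnologs (a gene pair left by the whole genome duplication), share a single *K. lactis* ortholog. All 28 were among the 5271 genes tested of 5534.

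Complex III (the cytochrome bc1 complex) passes electrons from coenzyme Q to cytochrome c, complex IV (cytochrome c oxidase) passes them on to oxygen, and complex V (F1F0 ATP synthase) uses the proton gradient that they build to make ATP. *S. cerevisiae* has no proton-pumping complex I and feeds electrons in through the single-subunit NADH dehydrogenases Ndi1, Nde1 and Nde2. It ferments glucose even where oxygen is present and holds respiratory genes low while doing so, whereas *K. lactis* respires glucose. Part of the catalytic core of complex III, that of complex IV and part of the membrane sector of complex V are encoded in the mitochondrial genome. Its transcripts are barely seen here: in *S. cerevisiae*, *COX1* and *ATP8* had 0 counts and *COX2* had 134 counts over all cultures.

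The study asked how gene expression responds to inhibition of protein kinase A (PKA), the kinase that signals glucose abundance, in both species. PKA analog-sensitive (PKA-AS) strains carry gatekeeper mutations in every PKA catalytic subunit, so that the ATP analog 1-NM-PP1 blocks the kinase, and PKA-WT strains carry the unmutated kinase as a control for the drug. Exponential cultures in YPD, a rich glucose medium, at 30 °C were divided and received 3 µM 1-NM-PP1 or the solvent DMSO for 50 min. Each allele was studied alone and, in *S. cerevisiae*, also without *MSN2* and *MSN4* (ΔMsn2/4), without *RPH1* and *GIS1* (ΔRph1/Gis1) and without all of them. *K. lactis* has a single ortholog of each transcription factor pair, and the same deletions were made there in PKA-AS only. In *S. cerevisiae* each PKA-AS group had 4 cultures and each PKA-WT group had 3, and the PKA-AS and PKA-WT strains come from different derivatives of the same background, the PKA-AS one with an added fluorescent nuclear marker. In *K. lactis* each group had 4 cultures, except 3 where both deletions were combined, 2 for PKA-WT with DMSO and 3 for PKA-WT with drug. The labels number the cultures without saying how independently they were grown, so the p-values measure the spread between these cultures.

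Reads of the 3′ ends of polyadenylated RNA were counted per gene. The counts on genes of a sequencing library, before repeat libraries of a culture were summed, ranged from 188289 to 4715139 (median 2062219) in *S. cerevisiae*. In *K. lactis* they ranged from 815372 to 4117520 (median 2405976). The shallowest was the third drug culture of PKA-AS ΔMsn2/4 in *S. cerevisiae*. Tags at the 3′ end check a deletion only where that end was removed, and where the remaining reads fall was not tested. *MSN2* had 0 to 4 counts in strains that lack it and 1 to 42 in the others, *MSN4* 0 to 69 against 8 to 223, and *GIS1* 0 to 26 against 0 to 60, while *RPH1* was at 0 everywhere. In *K. lactis* the ortholog of *MSN2* and *MSN4* had 0 to 38 counts in strains without it and 3 to 129 in the others, and that of *RPH1* and *GIS1* had 7 to 40 against 9 to 86. Levels are CPM, the counts of a gene relative to the total of its culture after edgeR's TMM scaling, given in the order of cultures 1, 2, 2017 and 3 for PKA-AS (2017 is the label of a culture) and 1, 2, 3 and 4 for the deletion strains. The log2 fold change (LFC) of drug over DMSO is given ± its standard error with the adjusted p of edgeR's quasi-likelihood test. A member is said to have risen or fallen where that p was under 0.01.

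In *S. cerevisiae* PKA-AS, 10 of the 31 members tested rose with 1-NM-PP1 and none fell, beside 20.7% of the 5779 genes tested that rose and 21.2% that fell. The LFC was above 0 for 30 of the 31, with a median of 1.02 where the median over all genes was near 0. With each divided culture as a block in the fit, 19 members rose and none fell, beside 25.7% and 25.6% of all genes. *STF1* alone passed an LFC of 2 as well, which 9.72% of all genes did upwards. In 28 of the 31 members the drug portion was above the DMSO portion of the same culture in 4 of 4 cultures, a count not made over all genes.

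Complex III had the highest median LFC of the complexes. Its 8 measured members had LFCs from 1.22 to 2.22 with a median of 1.62, and 5 of them rose. The summed level of the complex was 703, 443, 695 and 431 CPM with DMSO and 2213, 1382, 1507 and 1459 CPM with drug, so that every drug culture was above every DMSO culture. Such a sum weighs members by their CPM, so those with the highest levels count most in it. As these are bulk cultures, more RNA per cell and more cells that express a gene cannot be told apart. *COR1*, a core protein of the complex, was at 134, 117, 143 and 105 CPM with DMSO and at 445, 353, 327 and 361 CPM with drug (LFC 1.58 ± 0.27, adjusted p = 3.29e-06). *RIP1*, the Rieske iron-sulfur protein, went from 18.5, 17.3, 24.5 and 19.98 CPM to 79.5, 61.3, 61.0 and 58.3 CPM (LFC 1.70 ± 0.38, adjusted p = 0.000183). In both the groups were far apart and the cultures of a group lay close together. *CYT1* (cytochrome c1, LFC 1.56 ± 0.34, adjusted p = 0.000141), *QCR7* (1.29 ± 0.26, adjusted p = 5.17e-05) and *QCR9* (1.66 ± 0.49, adjusted p = 0.00374), the last pair being small subunits, rose too.

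The highest and the lowest LFC of complex III belonged to members that did not pass the test without the block. *QCR10*, a small subunit, was at 31.6, 12.1, 18.3 and 6.86 CPM with DMSO and at 184, 26.6, 66.9 and 41.2 CPM with drug. The groups overlapped, yet each culture's drug portion was the higher (LFC 2.22 ± 0.91, adjusted p = 0.0387, and 0.00041 with the block). Leaving out 1 culture portion at a time moved its LFC between 1.39 and 2.72. *QCR2*, the second core protein, was at 60.1, 32.4, 84.8 and 29.8 CPM with DMSO and at 165, 75.9, 116 and 120 CPM with drug (LFC 1.22 ± 0.51, adjusted p = 0.0431, and 0.00024 with the block). *QCR8* had an LFC of 1.74 ± 0.85 (adjusted p = 0.0822, and 0.00107 with the block). With the block all 8 measured members of complex III passed.

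None of the 7 complex IV members passed the test in *S. cerevisiae* PKA-AS without the block. Their LFCs lay between -0.01 and 1.15 with a median of 0.94, and the summed level of the complex was 2002, 1104, 1389 and 574 CPM with DMSO against 3128, 1462, 3384 and 2047 CPM with drug, which overlap. *COX4* had the lowest LFC of all members. It was at 41.1, 15.6, 16.0 and 13.4 CPM with DMSO and at 33.5, 12.1, 20.5 and 19.6 CPM with drug (LFC -0.01 ± 0.63, adjusted p = 0.997), higher with drug in 2 of 4 cultures. *COX13* had the highest LFC of the complex and a wide spread, with 808, 370, 495 and 129 CPM with DMSO and 1248, 374, 1588 and 791 CPM with drug (LFC 1.15 ± 1.04, adjusted p = 0.366). *COX6* was at 119, 72.3, 78.7 and 37.6 CPM and at 254, 82.4, 158 and 113 CPM (LFC 0.99 ± 0.74, adjusted p = 0.268). *COX8* was at 414, 289, 342 and 185 CPM and at 647, 471, 585 and 428 CPM, all 4 drug cultures above all 4 DMSO cultures (LFC 0.79 ± 0.36, adjusted p = 0.0617, and 0.0017 with the block). *COX12* also passed only with the block (LFC 0.94 ± 0.36, adjusted p = 0.0274, and 0.0034 with the block), and *COX7* and *COX9* had LFCs of 0.51 ± 0.27 and 1.02 ± 0.88.

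Of the 14 complex V members, 4 rose in *S. cerevisiae* PKA-AS and the median LFC was 0.94. The summed level went from 2391, 2116, 2754 and 2192 CPM to 4837, 4550, 4565 and 4371 CPM without overlap, and cultures of a group lay close together. Without the first drug culture the median fell to 0.75. *ATP7*, subunit d of the stator stalk, had the highest LFC of the complex, with 185, 213, 352 and 216 CPM with DMSO and 519, 650, 655 and 695 CPM with drug (LFC 1.38 ± 0.21, adjusted p = 2.06e-07). *ATP15*, the epsilon subunit of the rotor, was at 193, 129, 219 and 165 CPM with DMSO and at 558, 448, 420 and 380 CPM with drug (LFC 1.36 ± 0.20, adjusted p = 1.58e-07). The others that rose were *ATP4*, the b subunit of the stator (LFC 1.08 ± 0.23, adjusted p = 0.000105), and *TIM11*, subunit e of the dimer interface (LFC 0.92 ± 0.30, adjusted p = 0.00938).

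The catalytic subunits passed with the block and not without it. *ATP1* (alpha) had an LFC of 0.71 ± 0.29 (adjusted p = 0.0406, and 0.000458 with the block) and *ATP2* (beta) one of 1.03 ± 0.64 (adjusted p = 0.181, and 0.00725 with the block). *ATP20*, subunit g, had the lowest LFC of the complex, with 130, 44.5, 77.2 and 22.7 CPM with DMSO and 176, 27.6, 85.1 and 54.9 CPM with drug (LFC 0.33 ± 0.94, adjusted p = 0.801). *ATP18* was at 393, 450, 530 and 437 CPM with DMSO and at 705, 774, 874 and 650 CPM with drug, all apart from the DMSO cultures (LFC 0.73 ± 0.27, adjusted p = 0.0231, and 0.000239 with the block). *ATP14* (LFC 0.98 ± 0.34), *ATP3* (0.93 ± 0.69), *ATP5* (1.02 ± 0.94), *ATP16* (0.59 ± 0.56), *ATP17* (0.78 ± 0.64) and *ATP19* (0.95 ± 0.57) did not pass with or without the block. Over the 31 members, 15 had every drug culture above every DMSO culture and none the reverse. This was counted for the members only, so no share over all genes stands beside it.

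**Figure D1:**
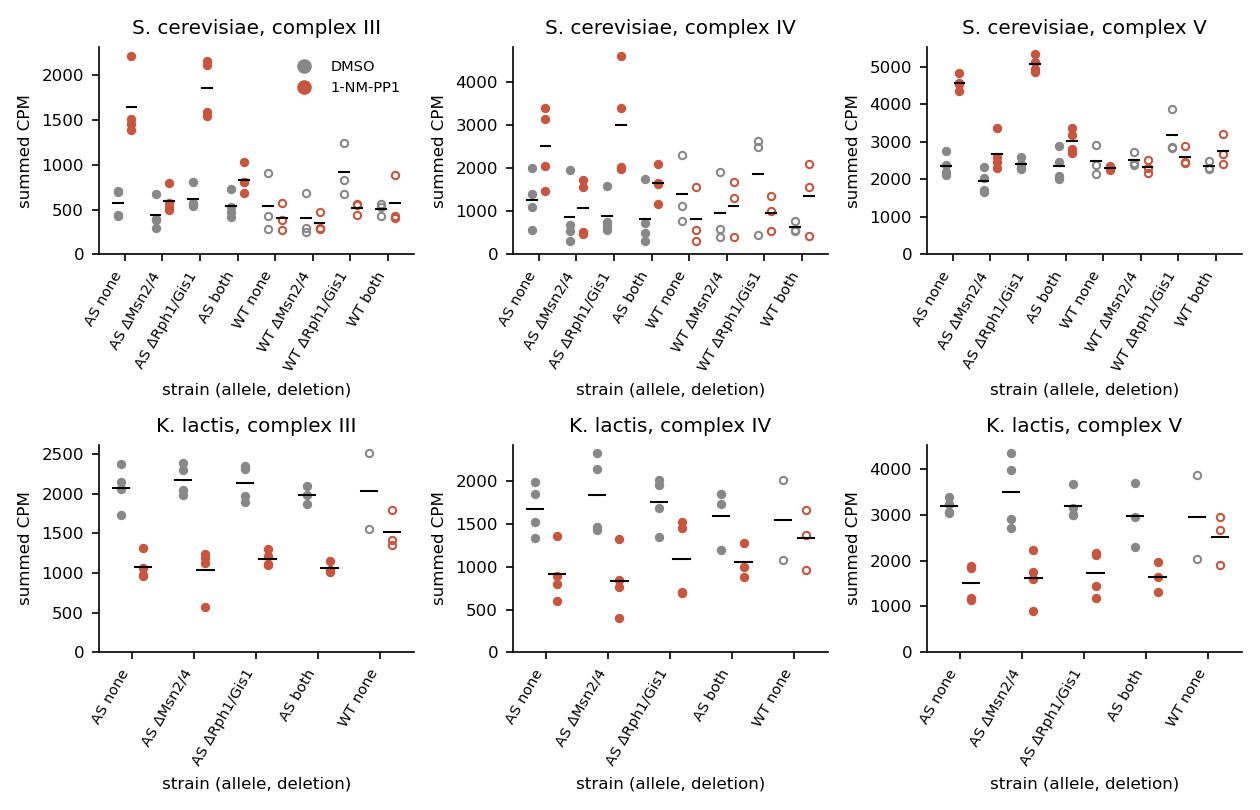
Summed CPM of the measured members of complex III, IV and V in each culture (vertical axis, CPM), by strain (horizontal axis, where both means that both transcription factor pairs were deleted), with *S. cerevisiae* in the upper row and *K. lactis* in the lower row. Points are single cultures, filled for PKA-AS and open for PKA-WT, coloured by DMSO or 1-NM-PP1, and black lines are group means. In *S. cerevisiae* PKA-AS the complex V cultures sit at 2116 to 2754 CPM with DMSO and at 4371 to 4837 CPM with drug, and in *K. lactis* PKA-AS at 3035 to 3394 CPM with DMSO and 1133 to 1887 CPM with drug.

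*STF1* and *INH1* encode small proteins that bind the F1 part of the ATP synthase and hold back its hydrolysis of ATP when the proton gradient fails. *STF1* rose the most of all members, from 18.04, 43.4, 35.2 and 50.4 CPM with DMSO to 830, 1607, 1101 and 1339 CPM with drug (LFC 5.05 ± 0.51, adjusted p = 1.41e-11). Within the divided cultures its mean log2 ratio was 5.09 ± 0.33 (SD, n = 4). *INH1* was at 59.1, 6.94, 35.9 and 5.66 CPM with DMSO and at 271, 28.2, 69.2 and 29.9 CPM with drug. Its groups overlapped, with DMSO levels that differed widely between cultures, and its LFC of 1.90 ± 1.06 passed only with the block (adjusted p = 0.13, and 0.00041 with the block). The mean log2 ratio of *INH1* within cultures was 1.84 ± 0.62 (SD, n = 4), with the drug portion higher in 4 of 4. Leaving out 1 portion at a time moved the LFC of *STF1* between 4.82 and 5.25 and that of *INH1* between 0.67 and 2.70.

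Short upstream sequences are shown for both inhibitors, for members with a high LFC and for *QCR2* and *ATP20*, the lowest of their complexes, because binding letters of the factors that were deleted or that control respiration lie in them. *COX4*, with the lowest LFC, and *CYT1*, which rose, held none of these motifs. Hap2/3/4/5, the activator of respiratory genes, binds CCAAT, Msn2/4 bind AGGGG, and Rph1/Gis1 bind an element with the core AGGGAT. In the 300 bases before the coding start (RefSeq genome R64, both strands), CCAAT was found in 27 of 31 members (87.1%) and in 41.8% of 6007 such windows of all genes. AGGGG was found in 11 members (35.5%, against 22.2% of all windows) and AGGGAT in 4 (12.9%, against 9.24%), and these last motifs begin with the same letters but cannot match at the same place. By group, CCAAT was in 6 of 8 windows of complex III, 6 of 7 of complex IV, 14 of 14 of complex V and in *INH1* but not *STF1*. The complex III members without it, *CYT1* and *COR1*, both rose. AGGGG was in both inhibitors. Each sequence is written 5′ to 3′ on the strand of the gene, with the motif in capitals (ATTGG is CCAAT on the other strand).
STF1 AGGGG, chrIV:229038-229066 (+): ttattatcttttAGGGGgcggctggggaa
INH1 AGGGG, chrIV:134888-134916 (+): cgcggcagaataAGGGGaggctgctgcgg
INH1 AGGGG, chrIV:135025-135053 (+): cgttagagaaggAGGGGttcataacttga
INH1 CCAAT, chrIV:134935-134963 (+): ttcacaattatgCCAATcaactgtctagt
QCR10 AGGGG, chrVIII:107678-107706 (+): taccatttatcaAGGGGacgggatatatc
QCR10 CCAAT, chrVIII:107615-107643 (+): cgtgattttgatCCAATtaaaactaaata
RIP1 CCAAT, chrV:107001-107029 (+): ctccataacggaCCAATcagcgttttgcg
COX13 CCAAT, chrVII:144584-144612 (+): ttttttttcccaCCAATgagaggcggtac
ATP7 CCAAT, chrXI:408150-408178 (-): gtaaaagatacaCCAATtaccacttgctg
QCR2 CCAAT, chrXVI:919184-919212 (+): attcccaacgaaCCAATagaaggcccgcc
ATP20 CCAAT, chrXVI:599689-599717 (+): ttcttattcctgATTGGctgaaagaaaat
The *STF1* motif lies 121 to 117 bases before its coding start. A match is a run of letters and not a measured binding site.

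The spread between *S. cerevisiae* cultures of the same group lay largely along a single axis, and most members took part in it. Over 4011 well-counted genes other than the members, the first component held 66.4% of the variance within groups, and over the 56 cultures it had r = 0.936 with the log2 percent of reads that fell on no annotated feature. The within-group SD of log2 CPM was above the median gene's 0.464 for 21 of the 31 members, and 21 had r below -0.5 with that percent. *COX13* had the largest SD (1.68, r = -0.95), and *ATP20* (1.62), *INH1* (1.57), *COX9* (1.44, r = -0.97) and *QCR10* (1.37) were near it. *ATP15* (0.255), *ATP7* (0.270, r = -0.42) and *ATP4* (0.313) had the smallest. *QCR7* (r = 0.62), *ATP17* (0.93) and *STF1* (0.88) went the other way. These r describe cultures that share library composition and carry no test.

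The same percent also differed between the treatments compared. In *S. cerevisiae* PKA-AS it was 3.81% to 6.07% with DMSO (median 4.57%) and 5.91% to 8.24% with drug (median 7.40%). With its log2 as a covariate, a choice made after seeing the data, 26 of the 31 members rose and none fell, beside 29.1% and 27.3% of all genes, and the median LFC was 2.17 for complex III, 1.62 for IV and 1.51 for V. No member fell with or without the covariate, while the number that rose changed, and the LFC of *ATP17* went from 0.78 ± 0.64 to -0.41 ± 0.25, neither past the test. That of *COX4* went from -0.01 to 1.13. What share of the result goes with this percent was not tested beyond that fit. In *K. lactis* the first component held 46.7% of the variance within groups and had r = 0.239 with the percent on no feature.

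**Figure D2:**
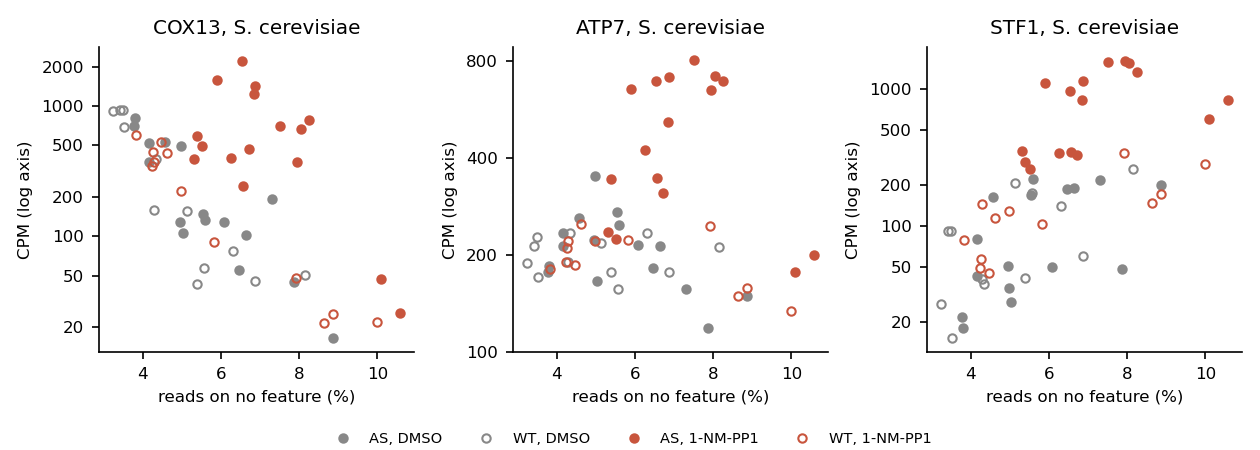
CPM of *COX13*, *ATP7* and *STF1* (vertical log axes) against the percent of reads on no annotated feature (horizontal axis) in the 56 *S. cerevisiae* cultures of all strains, where filled points are PKA-AS, open points PKA-WT, grey DMSO and red 1-NM-PP1. Within groups *COX13* is lower where the percent is higher (r = -0.95), *ATP7* less so (r = -0.42), and *STF1* is higher (r = 0.88).

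In *S. cerevisiae* PKA-AS ΔMsn2/4, 2 of 31 members rose with drug and none fell, beside 8.69% and 12% of all genes, and with the block 5 rose and none fell, beside 12.6% and 15.4%. With the covariate of reads on no feature 15 rose and none fell, beside 16.5% and 17.8%. With library totals in place of TMM 10 were called, for which no share of all genes is given. That scaling also moved the median LFC over all genes from 0.03 to 0.52. The median LFC was 0.29 for complex III, 0.36 for IV and 0.33 for V, and 24 of the 31 LFCs were above 0. The members that rose were *STF1*, from 21.9, 27.8, 49.0 and 51.3 CPM to 260, 351, 604 and 837 CPM (LFC 3.78 ± 0.49, adjusted p = 2.18e-08), and *ATP15*, from 199, 129, 150 and 158 CPM to 315, 257, 322 and 291 CPM (LFC 0.90 ± 0.20, adjusted p = 0.000398). Their drug and DMSO cultures did not overlap. *ATP7* was at 177, 167, 118 and 223 CPM with DMSO and at 224, 236, 177 and 200 CPM with drug, which overlap. *INH1* was at 45.2, 2.13, 4.63 and 6.20 CPM with DMSO and at 103, 26.3, 28.9 and 24.2 CPM with drug, higher with drug in 4 of 4 cultures. Without the first DMSO culture, which stood high for several members, the median LFC of complex III was 0.99 and that of complex V 0.76. Over all portions left out in turn these medians ranged from -0.01 to 0.99 for complex III, -0.08 to 1.23 for IV and 0.09 to 0.76 for V, so that their sign for III and IV was not stable. In this strain the percent on no feature was 3.77% to 7.88% with DMSO and 5.32% to 10.6% with drug.

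The difference between these responses was tested itself. The LFC of drug over DMSO was lower in PKA-AS ΔMsn2/4 than in PKA-AS for 1 member and higher for none, beside 3.51% and 5.05% of all genes. With the block it was lower for 6 members and higher for none, beside 6.09% and 8.06%. A gene that fell less without Msn2/4 counts as higher here. The member called without the block was *ATP7* (difference in LFC -1.09 ± 0.29, adjusted p = 0.00663), and with the block *COR1*, *QCR7*, *QCR9*, *ATP1* and *ATP2* joined it. The call on *ATP7* was lost when any of 11 of the 16 culture portions was left out (DMSO 1, 2 and 4 and drug 3 and 4 of ΔMsn2/4, DMSO 1, 2 and 3 and drug 2, 2017 and 3 of PKA-AS), with differences of -1.10 to -0.94. It was also lost with library totals, with upper quartile scaling, without a count filter and when no other groups were fitted. For *STF1* the difference was -1.27 ± 0.62 (adjusted p = 0.197, and 0.012 with the block).

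Levels with the drug present differed for more members. With 1-NM-PP1, 9 of 31 members were lower in PKA-AS ΔMsn2/4 than in PKA-AS and none was higher, beside 9.66% and 10.6% of all genes, and 16 were lower with the replicate number as a block, beside 13.7%. These 9 were *RIP1* (LFC -1.63 ± 0.39), *CYT1* (-1.23 ± 0.34), *COR1* (-1.41 ± 0.27), *QCR7* (-1.10 ± 0.26), *QCR9* (-1.87 ± 0.50), *COX7* (-1.20 ± 0.29), *ATP1* (-1.26 ± 0.30), *ATP4* (-0.94 ± 0.23) and *ATP7* (-1.58 ± 0.21), with adjusted p between 5.86e-08 and 0.00404. *RIP1* was at 24.8, 25.1, 18.1 and 13.5 CPM with drug in ΔMsn2/4, below each of the 4 PKA-AS drug cultures. With DMSO no member differed between these strains (edgeR, adjusted p under 0.01), beside 0% higher and 0.0692% lower of all genes, and 1 member had an unadjusted p under 0.05. Scaling to library totals left 3 of the 9. The calls on *QCR9* and *CYT1* were lost without ΔMsn2/4 culture 3 or 4 or PKA-AS culture 1, and that on *QCR9* also without ΔMsn2/4 culture 2 (LFC -1.84 to -1.64 for *QCR9* and -1.11 to -1.08 for *CYT1*).

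Without Rph1/Gis1, all members had an LFC above 0. In PKA-AS ΔRph1/Gis1, 14 of 31 members rose and none fell, beside 19.8% and 20.5% of all genes, and with the block 24 rose, beside 26.4%. The medians were 1.79 for complex III, 1.66 for IV and 1.27 for V. The 14 were *RIP1* (LFC 1.64), *CYT1* (1.92), *COR1* (1.47), *QCR2* (1.66), *QCR7* (0.95), *QCR9* (2.03), *COX7* (0.90), *COX12* (1.70), *ATP4* (1.25), *ATP7* (1.74), *ATP15* (1.49), *ATP16* (1.75), *ATP18* (0.88) and *STF1* (2.73). *ATP7* went from 260, 157, 214 and 248 CPM to 717, 697, 722 and 805 CPM. The summed levels of complexes III, IV and V were 3.01, 3.39 and 2.11 times as high with drug as with DMSO, without overlap in any of them. Much of the complex IV sum was *COX13*. With drug it was at 1420, 2235, 673 and 700 CPM, where the sum was 3398, 4591, 2028 and 1988 CPM. No member differed from PKA-AS in the drug effect (edgeR, adjusted p under 0.01), beside 0.0173% of all genes with a higher and 0.381% with a lower LFC. At an unadjusted p under 0.05 there was 1 member. That member was *STF1* (difference -2.31 ± 0.62, adjusted p = 0.0537, and 0.000399 with the block, which gave 1.26% of all genes with a lower LFC). With the drug present no member differed between ΔRph1/Gis1 and PKA-AS, beside 0% higher and 0.0519% lower of all genes, and none had an unadjusted p under 0.05.

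*STF1* was the only member past the test between ΔRph1/Gis1 and PKA-AS with DMSO. It was at 162, 218, 189 and 220 CPM there with DMSO, all above the highest PKA-AS DMSO culture at 50.4 CPM (LFC 2.42 ± 0.46, adjusted p = 0.000736), beside 1.21% higher and 0.0346% lower of all genes. With drug it was at 1154, 972, 1544 and 1578 CPM, which overlaps the PKA-AS drug cultures (LFC 0.11 ± 0.43). *INH1* was at 76.6, 24.8, 14.7 and 14.5 CPM with DMSO and at 165, 173, 29.1 and 33.1 CPM with drug in the same strain. In PKA-WT ΔRph1/Gis1 *STF1* was at 91.7 to 263 CPM with DMSO, against 26.9 to 41.4 CPM in PKA-WT, without overlap.

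With both transcription factor pairs deleted, the inhibitor *STF1* passed only with the block. In this PKA-AS strain 4 of 31 members rose with drug and none fell, beside 6.9% and 11.8% of all genes, and with the block 7 rose, beside 13.7%. They were *CYT1* (LFC 1.22 ± 0.34, adjusted p = 0.00475), *COX12* (1.38 ± 0.37, adjusted p = 0.00305), *ATP7* (0.77 ± 0.20, adjusted p = 0.00316) and *ATP15* (0.75 ± 0.20, adjusted p = 0.00308). None of the 4 passed without DMSO culture 2 or without DMSO culture 3, and 2 passed without DMSO culture 4, drug culture 1 or drug culture 4. *STF1* was at 80.5, 185, 199 and 168 CPM with DMSO and at 292, 349, 329 and 341 CPM with drug, still without overlap (LFC 1.05 ± 0.44, adjusted p = 0.0667, and 0.0015 with the block). *INH1* was at 88.4, 5.60, 13.9 and 10.3 CPM with DMSO and at 91.8, 12.2, 29.4 and 21.4 CPM with drug. The median LFC was 0.62 for complex III, 1.16 for IV and 0.53 for V, and with 1 portion left out at a time it ranged from 0.39 to 0.94, 0.81 to 1.72 and 0.40 to 0.60.

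Against PKA-AS, the LFC of drug over DMSO without both pairs was lower for 2 members and higher for none, beside 7.75% and 6.9% of all genes. With the block it was lower for 6, beside 11.9%. *STF1* had the largest difference (-4.00 ± 0.63, adjusted p = 4.48e-06) and *QCR7* was the other (-1.30 ± 0.37, adjusted p = 0.0075). *QCR7* was at 142, 151, 219 and 144 CPM with DMSO and at 186, 148, 159 and 163 CPM with drug, and its call was lost when any of 9 of the 16 culture portions was left out (DMSO 3 and drug 2, 3 and 4 of the deletion strain, DMSO 1, 2 and 3 and drug 2 and 3 of PKA-AS), with differences of -1.31 to -1.12. With DMSO, *STF1* was the only member to differ (LFC 2.10 ± 0.45, adjusted p = 0.00402), beside 0.848% higher and 0.0692% lower of all genes. That call was lost without PKA-AS DMSO culture 1, 2 or 2017 and without DMSO culture 2, 3 or 4 of the deletion strain, with LFCs of 1.88 to 2.19, and when no other groups were fitted. With drug, *STF1* (LFC -1.90 ± 0.44, adjusted p = 0.000774), *QCR7* (-1.02 ± 0.26, adjusted p = 0.00212) and *ATP7* (-0.82 ± 0.20, adjusted p = 0.00161) were lower than in PKA-AS and none was higher, beside 10.7% and 10.5% of all genes. With the replicate number as a block 9 were lower, beside 14.9%. The count of 3 was 0 with library totals, 6 with RLE scaling or filterByExpr, 8 with DESeq2 and 11 when no other groups were fitted. The call on *QCR7* with drug was lost without PKA-AS drug culture 2 (LFC -0.92).

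**Figure D3:**
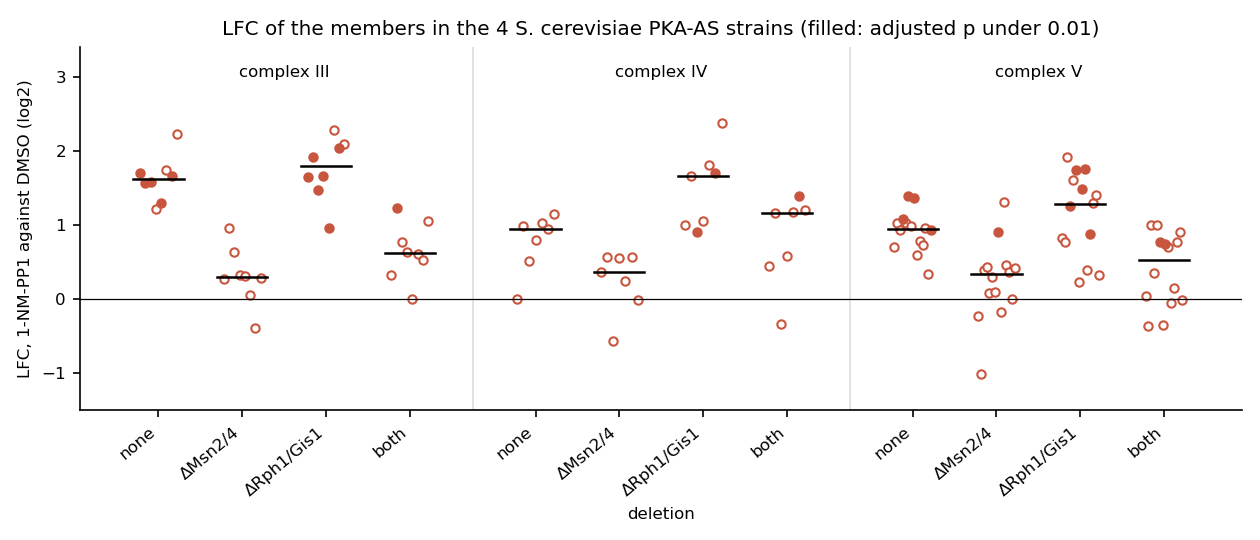
LFC of drug over DMSO (vertical axis, log2) of each measured member of complexes III, IV and V in the 4 *S. cerevisiae* PKA-AS strains (horizontal axis), 1 point per member, with the median of each complex as a black line and filled points for adjusted p under 0.01. The inhibitors are not drawn. The medians of complex III are 1.62 in PKA-AS, 0.29 without Msn2/4, 1.79 without Rph1/Gis1 and 0.62 without both pairs.

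**Figure D4:**
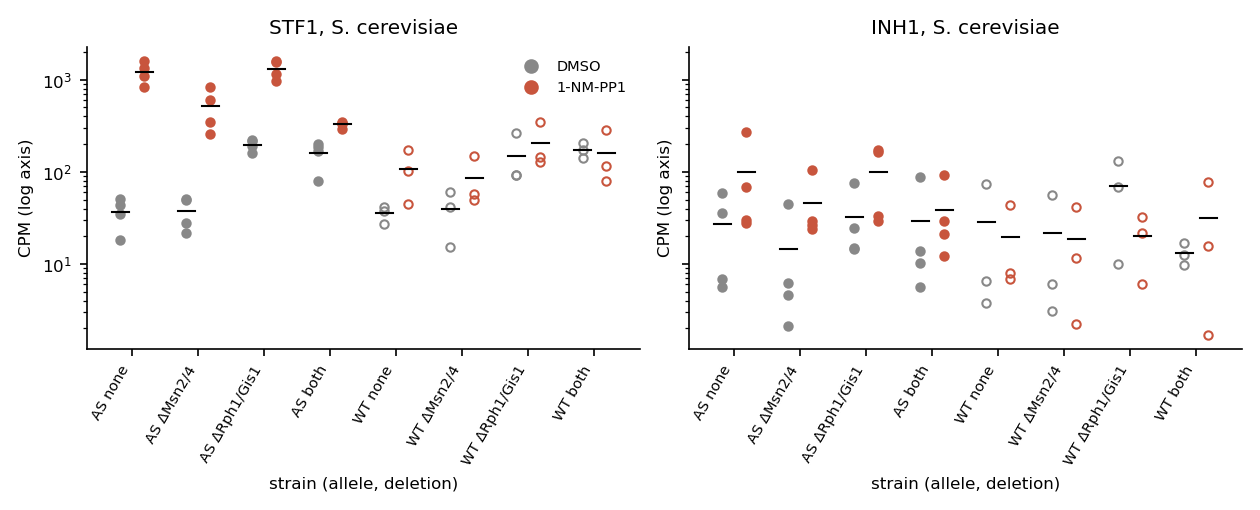
CPM of *STF1* and *INH1* (vertical log axes) in each culture of the 8 *S. cerevisiae* strains (horizontal axis), with a line at the arithmetic mean of each group, filled points for PKA-AS and open points for PKA-WT. *STF1* reaches 830 to 1607 CPM with drug in PKA-AS and 292 to 349 CPM without both pairs, and *INH1* cultures of the same group lie far apart.

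In PKA-WT the drug moved no member past the test without the block. No member was called in any of the 4 *S. cerevisiae* PKA-WT strains (edgeR, adjusted p under 0.01), where 0.121% of all genes rose and 0.0173% fell in PKA-WT itself, 0.173% and 0.0692% in ΔMsn2/4, 0.121% and 0.0173% in ΔRph1/Gis1 and 0.225% and 0.45% without both pairs. At an unadjusted p under 0.05 there were 2, 2, 9 and 0 members. With the block none was called in PKA-WT, beside 0.294% that rose and 0.138% that fell of all genes, and *ATP2* fell in PKA-WT ΔRph1/Gis1, beside 0.571%. In PKA-WT, 27 of 31 LFCs were below 0 with a median of -0.55. The percent of reads on no feature was 3.24% to 4.33% with DMSO and 4.47% to 8.88% with drug there, without overlap. What share of these LFCs goes with that percent was not tested beyond the covariate fit. The summed level of complex III was 905, 287 and 427 CPM with DMSO and 570, 276 and 388 CPM with drug, which overlap. *COR1* was at 158, 64.004 and 96.6 CPM with DMSO and at 97.7, 58.9 and 58.2 CPM with drug. *STF1* was at 26.9, 41.4 and 37.6 CPM and at 45.2, 103 and 173 CPM, so that all 3 drug cultures were the higher (LFC 1.60 ± 0.52, adjusted p = 0.268, and 0.017 with the block). *INH1* was at 74.3, 3.76 and 6.51 CPM and at 43.9, 6.83 and 7.90 CPM. In PKA-WT without both pairs *STF1* was at 206, 174 and 140 CPM with DMSO and at 79.6, 115 and 282 CPM with drug, which overlap.

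The LFC of drug over DMSO was higher in PKA-AS than in PKA-WT for 9 of the 31 members and lower for none. Beside that stood 10% and 13.6% of all genes, where a gene that fell more in PKA-AS counts as lower. With the block it was higher for 17, beside 15.1%. The 9 were *RIP1* (difference in LFC 2.10 ± 0.58, adjusted p = 0.00408), *CYT1* (1.98 ± 0.52, adjusted p = 0.0022), *COR1* (2.15 ± 0.41, adjusted p = 4.6e-05), *QCR9* (2.77 ± 0.75, adjusted p = 0.00305), *COX7* (1.40 ± 0.42, adjusted p = 0.00761), *ATP4* (1.25 ± 0.35, adjusted p = 0.00469), *ATP7* (1.50 ± 0.31, adjusted p = 0.000151), *ATP15* (1.34 ± 0.30, adjusted p = 0.000437) and *STF1* (3.45 ± 0.69, adjusted p = 8.02e-05). The difference was above 0 for 30 of 31 members, and its median was 2.12 for complex III, 1.40 for IV and 1.27 for V. The median percent of reads on no feature was higher with drug in both strains. Its share in these differences was not tested beyond the covariate fit. Without PKA-WT DMSO culture 1, 5 members passed, with *RIP1*, *CYT1*, *QCR9* and *COX7* lost. The calls were also lost for *RIP1* without PKA-WT drug culture 2, for *CYT1* without drug culture 3 and for *QCR9* without either (difference 1.66 to 2.67), and for *COX7* and *ATP4* without any of 9 and of 6 of the 14 portions (1.24 to 1.45 and 1.06 to 1.198). With DMSO no member differed between PKA-AS and PKA-WT (edgeR, adjusted p under 0.01), beside 0% of all genes in either direction, and no member had an unadjusted p under 0.05.

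In *K. lactis* PKA-AS the members went the other way. Of the 28 orthologs, 10 fell with 1-NM-PP1 and none rose, beside 24.1% of the 5271 genes tested that fell and 21.1% that rose, and with the block 16 fell and 1 rose, beside 26.6% and 23.4%. The LFC was below 0 for 27 of 28, and 21 members were lower with drug in 4 of 4 divided cultures. The median LFC was -1.31 for complex III, -0.82 for IV and -1.12 for V, where the median over all genes was -0.04. In 10 members every drug culture was below every DMSO culture. Like the 21 above, this count was made for the members only, so no share over all genes stands beside it.

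Complex III again had the largest median. Its summed level was 2056, 2151, 2379 and 1735 CPM with DMSO and 966, 1063, 1316 and 972 CPM with drug. *COR1* had the lowest LFC, from 60.6, 64.04, 68.2 and 39.2 CPM to 15.5, 11.6, 22.8 and 16.3 CPM (LFC -1.80 ± 0.28, adjusted p = 1.93e-06). In *S. cerevisiae* the same gene had risen, with an LFC of 1.58. *QCR2* (335, 185, 258 and 115 CPM to 66.6, 46.9, 116 and 53.7 CPM, LFC -1.66 ± 0.40, adjusted p = 0.000735) and *QCR8* (1126, 1180, 1161 and 1258 CPM to 719, 668, 713 and 700 CPM, LFC -0.76 ± 0.22, adjusted p = 0.00488) fell as well. In *QCR8* the change was small and the cultures of each group lay within a narrow range. *QCR7* fell too (LFC -1.36 ± 0.43, adjusted p = 0.00768), a call lost without DMSO culture 1 or 2017 or drug culture 1, 2 or 3 (LFC -1.42 to -0.96). *QCR10*, the highest of complex III in *S. cerevisiae*, was at 176, 271, 246 and 105 CPM with DMSO and at 34.4, 76.3, 162 and 89.1 CPM with drug, which overlap (LFC -1.13). *RIP1* had the highest LFC of the complex, with 38.0, 73.0, 133 and 17.3 CPM and 38.9, 110, 84.2 and 9.90 CPM (LFC -0.09 ± 0.67, adjusted p = 0.922). *QCR6*, at 0 in *S. cerevisiae*, was measured here, with an LFC of -1.35 ± 0.46 (adjusted p = 0.014, and 0.00026 with the block). *CYT1* had an LFC of -1.31 ± 0.48 (adjusted p = 0.0203, and 0.00052 with the block) and *QCR9* one of -1.26 ± 0.46 (adjusted p = 0.0209).

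In complex IV of *K. lactis*, *COX6* fell from 15.5, 12.6, 16.7 and 13.6 CPM to 3.89, 3.27, 6.28 and 7.07 CPM (LFC -1.52 ± 0.33, adjusted p = 0.000268) and *COX12* fell too (LFC -1.22 ± 0.35, adjusted p = 0.00373). *COX8* was at 12.9, 17.4, 25.1 and 18.1 CPM and at 16.7, 17.1, 23.7 and 12.7 CPM (LFC -0.04 ± 0.34, adjusted p = 0.928), with no side for drug or DMSO. *COX4* was at 1199, 943, 666 and 1500 CPM with DMSO and at 629, 293, 428 and 1086 CPM with drug, and *COX13* at 150, 100, 131 and 42.2 CPM and at 23.3, 37.4, 95.6 and 43.8 CPM. Neither passed, though *COX4* was lower with drug in 4 of 4 cultures. *COX7* had an LFC of -0.80 ± 0.30 (adjusted p = 0.0242, and 0.000102 with the block) and *COX9* one of -0.58 ± 0.46. The summed level of the complex was 1851, 1529, 1336 and 1993 CPM with DMSO and 892, 602, 800 and 1366 CPM with drug, which overlap.

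In complex V of *K. lactis* the summed level went from 3394, 3233, 3035 and 3070 CPM to 1179, 1133, 1832 and 1887 CPM. *ATP20* had the lowest LFC of the complex, from 237, 211, 245 and 122 CPM to 41.1, 46.9, 122 and 54.5 CPM (-1.61 ± 0.38, adjusted p = 0.000643). *ATP2*, the beta subunit (LFC -1.41 ± 0.31, adjusted p = 0.000228), *ATP4*, from 166, 215, 260 and 183 CPM to 51.6, 70.5, 111 and 72.1 CPM (-1.43 ± 0.27, adjusted p = 4.39e-05), and *TIM11*, from 414, 513, 488 and 636 CPM to 245, 231, 237 and 304 CPM (-1.01 ± 0.19, adjusted p = 2.59e-05), fell as well. *ATP4* and *TIM11* were thus among the genes that passed in opposite directions in the 2 species. *ATP18* had the highest LFC of the complex, with 133, 147, 181 and 64.8 CPM and 75.5, 72.0, 138 and 77.8 CPM (-0.53 ± 0.35), and *ATP7* was at 1937, 1459, 1185 and 1584 CPM and at 597, 377, 873 and 1153 CPM (-1.04). *ATP1* (LFC -1.12 ± 0.41), *ATP5* (-0.76 ± 0.29) and *ATP17* (-1.13 ± 0.51) passed with the block alone, and *ATP3* (-1.43 ± 0.60) and *ATP16* (-0.69 ± 0.63) in neither fit.

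The shared *K. lactis* ortholog of *INH1* and *STF1* was the member with an LFC above 0. It was at 31.3, 31.7, 58.8 and 22.6 CPM with DMSO and at 71.6, 74.5, 86.0 and 35.4 CPM with drug, higher with drug in 4 of 4 cultures (LFC 0.88 ± 0.34, adjusted p = 0.0288). With the block it passed (LFC 0.91, adjusted p = 0.009), and it also passed without the 2017 DMSO culture (LFC 1.23) or the third drug culture (1.08). Without Msn2/4 it was at 32.03, 31.96, 28.4 and 64.5 CPM and at 22.4, 23.3, 35.1 and 28.4 CPM (LFC -0.55 ± 0.35, adjusted p = 0.192). Without both orthologs it was at 51.4, 67.4 and 29.5 CPM and at 19.6, 26.1 and 25.9 CPM, every drug culture below every DMSO culture (LFC -1.05 ± 0.40, adjusted p = 0.034). The difference of that drug effect from PKA-AS was -1.93 ± 0.53 and did not pass (adjusted p = 0.043). In the strain without the *RPH1* and *GIS1* ortholog it was at 46.8, 29.3, 44.0 and 70.0 CPM and at 40.5, 74.1, 59.3 and 118 CPM (LFC 0.62 ± 0.34).

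In the *K. lactis* deletion strains between 7 and 11 of the 28 members fell. Without Msn2/4, 11 fell and none rose, beside 22.7% and 19.7% of all genes (15 with the block, beside 25.2%). Without the *RPH1* and *GIS1* ortholog, 7 fell and none rose, beside 22.8% and 18.7% (12 with the block, beside 25.3%). Without both, 7 fell and none rose, beside 19.6% and 12.5% (10 with the block, beside 21.5%), and this count was 4 without DMSO culture 3 or drug culture 2 and 3 without drug culture 3. Median LFCs were -1.15, -1.10 and -1.10 for complex III in these strains, -1.08, -0.73 and -0.74 for IV and -1.07, -0.79 and -1.13 for V. *COR1* had an LFC of -2.18 without Msn2/4 and *ATP2* one of -2.06 both there and without both orthologs. No member's drug effect differed from that in PKA-AS in any of the 3 strains (edgeR, adjusted p under 0.01). Beside that, 0% of all genes had a higher and 0.0379% a lower LFC without Msn2/4. These shares were 0.019% and 0.341% without the *RPH1* and *GIS1* ortholog and 0.0759% and 0.968% without both. At an unadjusted p under 0.05 there were 1, 0 and 1 members, and no member differed in level between any of these strains and PKA-AS with DMSO or with drug, beside at most 1.69% of all genes in either direction.

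The median LFC of each complex was below 0 in *K. lactis* PKA-WT too. There, with 2 DMSO and 3 drug cultures, 1 of 28 members fell and none rose, beside 3.72% and 2.43% of all genes. It was *COR1*, with 106 and 48.2 CPM with DMSO and 33.3, 22.8 and 29.9 CPM with drug (LFC -1.43 ± 0.34, adjusted p = 0.00495), and it did not pass with the block or without DMSO culture 1, drug culture 2 or drug culture 3. In 13 members every drug culture was below every DMSO culture. That count was made for the members only, and with so few cultures such a separation arises easily by chance. The median LFC was -0.62 for complex III, -1.06 for IV and -0.77 for V. The summed level of complex V was 3877 and 2037 CPM with DMSO and 2958, 1898 and 2676 CPM with drug, which overlap. The drug effect differed between PKA-AS and PKA-WT for no member (edgeR, adjusted p under 0.01), and 3 had an unadjusted p under 0.05. Beside that, 3.4% of all genes had a higher and 7.97% a lower LFC in PKA-AS. The median difference over the members was -0.24. The shared inhibitor ortholog was at 37.5 and 53.1 CPM with DMSO and at 37.8, 28.7 and 29.9 CPM with drug (LFC -0.47 ± 0.45).

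The responses of PKA-AS in the 2 species were compared in a single fit over 4802 ortholog pairs. The drug effect was more positive in *S. cerevisiae* for 28 of 28 member pairs, with differences from 0.82 to 4.16 and a median of 2.19, where the median over all pairs was 0.06 and 51.8% were above 0. It passed for 13 pairs in this direction and none in the other, beside 13.8% and 9.14% of all pairs, and for 20 with the block, beside 18.8%. By complex 5 of 8 pairs passed in III (median difference 2.87), 2 of 7 in IV (1.60) and 5 of 11 in V (1.94). *STF1* had the largest difference (4.16 ± 0.60, adjusted p = 3.60e-08) and *COR1* followed it (3.38 ± 0.39, adjusted p = 6.61e-11). *QCR10* did not pass (3.36 ± 1.08, adjusted p = 0.0113), and *COX4* had the smallest difference (0.82 ± 0.83, adjusted p = 0.485). With joined TMM scaling or without the 2017 cultures, *ATP2* and *COX7* no longer passed.

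**Figure D5:**
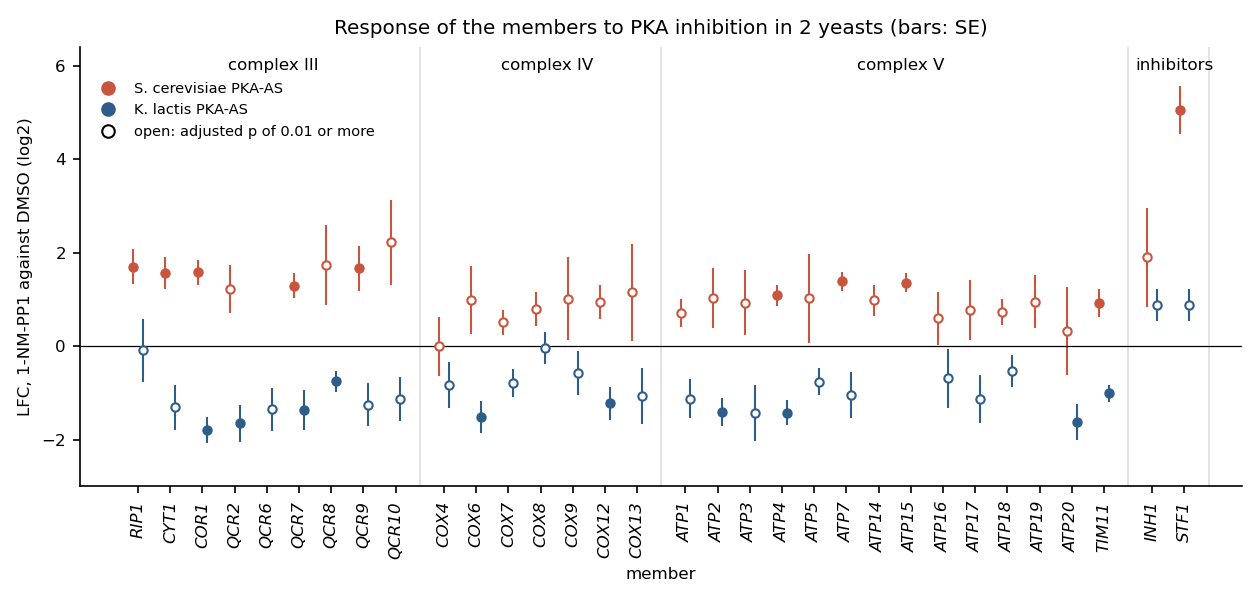
LFC of drug over DMSO in PKA-AS (vertical axis, log2) for each member (horizontal axis, by complex) in *S. cerevisiae* and *K. lactis*, with bars of ± 1 standard error and filled points for adjusted p under 0.01. *QCR6* is drawn only in *K. lactis*, *ATP14*, *ATP15* and *ATP19* only in *S. cerevisiae*, and the shared ortholog of *INH1* and *STF1* at both. All *S. cerevisiae* points except *COX4* (-0.01) lie above 0, and all *K. lactis* points except the shared inhibitor (0.88) lie below 0.

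Other genes of the pathway were counted from lists, without a test of any list. Among 11 other electron carriers and isoforms in *S. cerevisiae* PKA-AS, 7 rose and 2 fell with a median LFC of 1.86, beside 20.7% and 21.2% of all genes. The largest changes were those of *NDE2* (external NADH dehydrogenase, 8.397 ± 0.52), *CYC7* (cytochrome c isoform 2, 5.70 ± 0.80) and *COX5B* (hypoxic subunit of complex IV, 3.48 ± 0.20), all up. *NDI1* (internal NADH dehydrogenase, 3.34 ± 0.25) and the complex II genes *SDH2* (2.65), *SDH3* (1.86) and *SDH4* (1.55) rose too. *CYC1* (cytochrome c isoform 1, -2.44 ± 0.30) and *NDE1* (-1.51 ± 0.28) fell, and *COX5A* had an LFC of 0.27 ± 0.68 (adjusted p = 0.772). In *K. lactis*, 4 of 8 tested fell and none rose, beside 24.1% and 21.1% of all genes, namely the shared orthologs of *NDE1* and *NDE2* (-2.002) and of *CYC1* and *CYC7* (-1.13), *NDI1* (-0.64) and *SDH1* (-0.83).

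The assembly factors are read against the same shares, and the lists were not tested against each other. In *S. cerevisiae* PKA-AS, where 20.7% of all genes rose and 21.2% fell, 18 of 29 complex IV assembly genes rose and none fell (median LFC 1.66, *COX20* at 3.29), 3 of 9 for complex III rose and 1 fell (0.99, *CBP4* at 3.44 and *CBP1* at -0.88), and 1 of 12 for complex V rose (0.42, *NCA2* at 2.496). Of the 9 coenzyme Q genes 7 rose (1.96). In *K. lactis* PKA-AS, where 24.1% of all genes fell and 21.1% rose, 20 of 27 for complex IV fell and none rose (-1.13), 4 of 7 for complex III fell (-0.79) and 8 of 12 for complex V fell and 1 rose (-1.54, *FMC1* at -3.30 and *NCA2* at 1.17), while of the 9 coenzyme Q genes 1 rose and 2 fell (0.04). Without Msn2/4 in *S. cerevisiae*, 7 of the complex IV assembly genes rose (0.60), beside 8.69% of all genes.

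Of the 6 transcription factors listed, *HAP5* (LFC 1.92) and *HAP2* (1.71), subunits of the CCAAT-binding activator, rose in *S. cerevisiae* PKA-AS and *ROX1*, a repressor of hypoxic genes, fell (-2.20). *HAP4*, the activating subunit of the same complex, had an LFC of 0.33 ± 0.21 (adjusted p = 0.186). The orthologs of *HAP5* (1.29) and *HAP2* (1.12) rose in *K. lactis* as well. Beside the inhibitors, *STF2*, a further protein linked to ATP synthase, rose in *S. cerevisiae* (5.49) and its ortholog rose in *K. lactis* (6.63 ± 1.10). The supercomplex factor *RCF1* rose in *S. cerevisiae* (2.24), and *RCF2* had an LFC of -1.14 there (adjusted p = 0.0232) and fell in *K. lactis* (-2.41).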

How the data were processed

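The authors trimmed and aligned QuantSeq 3′ reads to R64 (*S. cerevisiae*) or ASM241v1 (*K. lactis*) and counted them per gene with HTSeq on annotations with added 3′ ends; versions are not given in the sources used here. The deposited raw counts were used. Their deposited rlog values, log2 fold changes and p-values from DESeq2 were not used beyond gene and ortholog names.

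In *S. cerevisiae*, 59 of 60 libraries were used: 1 marked as dropped was left out, and 3 repeat libraries were summed with the first library of their culture, both portions of ΔRph1/Gis1 culture 2 in PKA-AS, leaving 56 cultures. *K. lactis* had 35. Reads on no feature (median 5.60% and 10.9%), ambiguous (3.01% and 0.0682%) or not unique (6.98% and 1.27%) were kept out of library totals.

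Each species was fitted with edgeR 4.0.16 (R 4.3.3, limma 3.58.1; TMM, glmQLFit, glmQLFTest) with 1 factor for allele, deletion and drug, on genes that reached 2 counts in 3 or more cultures, with Benjamini-Hochberg adjustment over all genes tested. The species comparison joined ortholog pairs with own-species TMM totals as offsets. The fit was tested on simulated data. DESeq2 1.42.0, other scalings, filters, subsets and each culture left out were the alternatives, and the percent on no feature as a covariate was added after seeing the data.

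The treatment protocol in the labels has each culture divided between drug and DMSO, and the same number was read as the same culture. Same-numbered samples deviated together (r above 0.1) in 24 of 28 pairs in *S. cerevisiae* (median r 0.568, lowest -0.279) and in 13 of 17 in *K. lactis* (0.508, lowest -0.341), and the block is given beside a result where it changes it. For levels compared between strains the block was the replicate number. The labels do not say what equal numbers share across strains.

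Members and lists were chosen with earlier results of these data known. Values in every culture are given for the members with the highest and lowest LFC of each complex in PKA-AS of either species with their orthologs, for both inhibitors, and for the largest differences between strains and species; other values were chosen after they were seen. Motifs were read in the 300 bases before each coding start. Counting error sets a floor of 3 counts, and no fold is given for genes at 0. Scripts ran in Python 3.11.15 with numpy 2.4.6, pandas 2.3.3 and matplotlib 3.10.9.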

Additional observations from a re-analysis of the deposited data

Results flagged for a closer look

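Of 232 groups of 4 cultures, 13 held a single culture far from the other 3, where chance flags about 5% of groups. In *S. cerevisiae* with DMSO, culture 1 stood high for *RIP1* without Msn2/4 (35.0 CPM, others 11.1 to 12.6), for *COX4* in PKA-AS (41.1, others 13.4 to 16.05), for *ATP20* without Rph1/Gis1 (90.6, others 24.7 to 29.7) and for summed complex III in the same strain (803, others 545 to 568.2). With drug, culture 1 stood high for *RIP1* in PKA-AS (79.5, others 58.3 to 61.3) and for *INH1* without Msn2/4 (103, others 24.2 to 28.9). Culture 3 stood high for *QCR7* with DMSO without both pairs (219, others 142 to 151).

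In *K. lactis* with drug, culture 3 without Msn2/4 stood low for *QCR2* (21.8 CPM, others 63.5 to 76.7) and for summed complex III (572, others 1125 to 1245), and culture 4 of that strain stood low for *COX6* (4.13, others 7.77 to 8.54). Culture 2 without the *RPH1* and *GIS1* ortholog stood low for *QCR10* (95.6, others 124 to 126), and culture 2017 of PKA-AS stood high for *ATP18* (138, others 71.96 to 77.8). With DMSO, culture 4 without Msn2/4 stood high for the shared ortholog of *INH1* and *STF1* (64.5, others 28.4 to 32.03).

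The drug effect differed between strains or species by a test of the difference itself (edgeR, adjusted p under 0.01). Against *S. cerevisiae* PKA-AS the difference in LFC was -1.09 for *ATP7* without Msn2/4, and -4.00 for *STF1* and -1.30 for *QCR7* without both pairs. PKA-AS exceeded PKA-WT by 3.45 for *STF1*, 2.77 for *QCR9*, 2.15 for *COR1*, 2.10 for *RIP1*, 1.98 for *CYT1*, 1.50 for *ATP7*, 1.40 for *COX7*, 1.34 for *ATP15* and 1.25 for *ATP4*. *S. cerevisiae* exceeded *K. lactis* by 4.16 for *STF1*, 3.38 for *COR1*, 2.92 for *QCR9*, 2.87 for both *QCR2* and *CYT1*, 2.66 for *QCR7*, 2.51 for *ATP4*, 2.44 for *ATP2*, 2.42 for *ATP7*, 2.16 for *COX12*, 1.94 for *TIM11*, 1.84 for *ATP1* and 1.31 for *COX7*.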

How the results depend on the processing

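No called value changed its direction under any alternative. Of 638 LFCs of named members, 585 kept their side of the threshold, 36 lost it and 17 gained it, and 319 of 373 counts of members stayed within 1.5 times. What depth limits was not tested by member, and the 2 DMSO cultures of *K. lactis* PKA-WT limit that strain. With the divided culture or replicate number as a block, counts went to 19 (from 10) in *S. cerevisiae* PKA-AS, 5 without Msn2/4, 24 without Rph1/Gis1, 7 without both, 1 in PKA-WT ΔRph1/Gis1, 6, 1 and 6 for the differences of these deletions from PKA-AS, 17 for PKA-AS against PKA-WT, 16 and 9 for levels with drug without Msn2/4 and without both, 20 for the species difference, and in *K. lactis* 17 in PKA-AS, 12 without the *RPH1* and *GIS1* ortholog and 0 in PKA-WT; other calls on counts stayed within 1.5 times. With the covariate of reads on no feature, added after seeing the data, the same *S. cerevisiae* counts were 26, 15, 27 and 13. Those for the differences were 9, 1 and 8 and 22 and for the levels with drug 25 and 16. The medians were 2.17, 1.62 and 1.51 for complexes III, IV and V. In *K. lactis* the counts were 11 and 12 without the *RPH1* and *GIS1* ortholog and without both. There 1 was called for the difference and 1 for the level with drug without both, and the complex III median was -1.44. In *S. cerevisiae* the covariate also raised the share of all genes that rose, from 20.7% to 29.1% in PKA-AS and from 8.69% to 16.5% without Msn2/4. No share of all genes is given for its other counts, so they are not read as particular to the members.

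Library totals in place of TMM shifted the median over all genes by up to 0.48 (PKA-AS ΔMsn2/4) and gave 10 there, 3 and 0 for levels with drug without Msn2/4 and without both, 0 and 1 for their differences, a complex V median of 1.11, and 2 and 0 for *K. lactis* without both and PKA-WT. DESeq2 gave 8 for levels with drug without both in *S. cerevisiae*, 1 for the same in *K. lactis* and 3 in *K. lactis* PKA-WT, and RLE scaling and filterByExpr each gave 6 for the first of these. Upper quartile scaling gave 0 and 1 for the differences without Msn2/4 and without both, and no count filter gave 0 for the former. With only the compared groups fitted, counts were 1 without Msn2/4, 22 without Rph1/Gis1, 0 and 1 for the differences, 0 and 11 for levels without both with DMSO and drug, and 7, 3 and 0 in *K. lactis* without Msn2/4, without both and in PKA-WT. Without the 2017 cultures the level without both with DMSO gave 0 and the *K. lactis* complex III median was -1.15. The cause of these changes was not tested.

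With 1 culture portion left out at a time, counts ranged from 8 to 10 in *S. cerevisiae* PKA-AS, stayed at 2 without Msn2/4 and ranged from 10 to 13 without Rph1/Gis1, 0 to 4 without both, 0 to 1 and 1 to 2 for the differences without Msn2/4 and without both, 5 to 9 for PKA-AS against PKA-WT, 7 to 10 and 2 to 4 for levels with drug without Msn2/4 and without both and 0 to 1 for the latter with DMSO. In *K. lactis* they ranged from 7 to 14, 10 to 12, 5 to 8, 3 to 6 and 0 to 1 in PKA-AS, without Msn2/4, without the *RPH1* and *GIS1* ortholog, without both and in PKA-WT. Medians in PKA-AS ranged from 1.41 to 1.70, 0.69 to 1.16 and 0.75 to 1.03 for complexes III, IV and V in *S. cerevisiae* and from -1.62 to -1.01, -1.01 to -0.69 and -1.21 to -1.02 in *K. lactis*.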
